A study of Mus musculus with 5 samples.

Results

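The genes described here are 52 nuclear genes of mitochondrial RNA and DNA expression. Their roles are DNA replication, transcription, RNA processing, modification and decay, ribosome assembly and nucleotide supply. The genes were chosen by name, and 41 of the 52 were found among the 12930 genes of the table. All 41 had a ratio in each of 4 siRNA libraries, as did 12088 genes of the table. The table writes gene names in capitals (PRIMPOL, REXO2, FASTKD3), and mouse symbols are used below. The cells were OG2 mouse embryonic stem cells, whose strain is labelled (CBA/CaJxC57BL/6J) and 129Sv/Jae. They were held for 24 h in N2B27 medium with LIF, PD0325901 and CHIR99021, then transfected at 50 nM and moved for 36 h to medium with bFGF and Activin A. Of the 5 libraries, 2 came from cells given siRNA against Dhx30 (siDhx30), 2 from cells given siRNA against Tfam (siTfam) and 1 from cells given the negative control (NC). All groups shared the cell line, the media and the times, and the question was what each knockdown did to the transcriptome.

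Mitochondrial DNA is transcribed from both strands into long precursors, which are cut at the tRNAs that punctuate them. The released RNAs are matured in granules next to the nucleoid, where helicases, FASTK family proteins and ribosome assembly factors are found. Dhx30 is a helicase of these granules, and Tfam packages mitochondrial DNA and helps to start its transcription.

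Each value is a log2 ratio of 1 siRNA library to the NC library from the table that the authors deposited, as read here, with the sign turned round. The column headings give neither direction nor denominator. The direction was inferred from missing values: 842 genes lacked a ratio in at least 1 library, and all 1574 ratios they did have were negative as deposited. Ratios above 3 as deposited occurred in 102 genes, all of them complete, whereas 20 of the 124 genes with a ratio below -3 were complete. A gene with no reads in NC would have a ratio only in the siRNA libraries where it had reads, and that ratio would be negative if NC were on top. Values as deposited were therefore read as NC over siRNA. Every statement of higher or lower than NC rests on this inference. In the difference between siDhx30 and siTfam the NC library cancels if each value is a plain ratio to it, which unstated settings leave unchecked. The sign of that difference also rests on the inference. Read totals are not given, and the depth of the libraries is therefore unknown. Nothing in the labels says whether replicates were separate cultures, so p-values describe the spread between libraries, which could be technical. In RNA from bulk cultures, fewer cells of a type and less RNA per cell cannot be told apart.

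Which of the 52 genes had a value followed the annotated isoforms. In GENCODE M21, all 41 genes found in the table have at least 1 isoform annotated as a retained intron or a processed transcript, classes that carry no coding sequence. All 11 genes not found have none: Fastkd5, Trmt10c, Ptcd1, Ptcd2, Slirp, Trmt5, Mrm2, Tefm, Twnk, Mgme1 and Endog. They include the mitochondrial replicative helicase (Twnk), the partner of Lrpprc (Slirp) and the transcription elongation factor (Tefm). The genes not found had a median of 2 annotated isoforms and 4 exons, against 7 isoforms and 10 exons for the genes found, while the median length of the longest transcript was 2701 bases and 2680 bases. Across the genome 9499 of 12424 protein-coding genes with such an isoform were in the table (76.5%), against 45 of 9567 without one (0.470%). Of 15 embryonic stem cell markers, 4 were found (Esrrb, Tfcp2l1, Sall4 and Dnmt3l), and all 4 have such an isoform, while the 11 not found, Pou5f1, Sox2 and Nanog among them, have none. The cell type therefore could not be checked on most of its defining markers. Single-library ratios of the 4 found ran from -1.14 to 1.71, both of them Tfcp2l1 in the siTfam libraries. Of 10 primitive endoderm markers 7 were found, with ratios from -2.21 (Col4a2) to 1.58 (Gata6, siDhx30 replicate 2). Of 7 fibroblast and feeder markers 3 were found, with ratios from -0.87 (Col1a2) to 0.79 (Thy1). Whether cell state differed between the libraries was not tested.

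**Figure D1:**
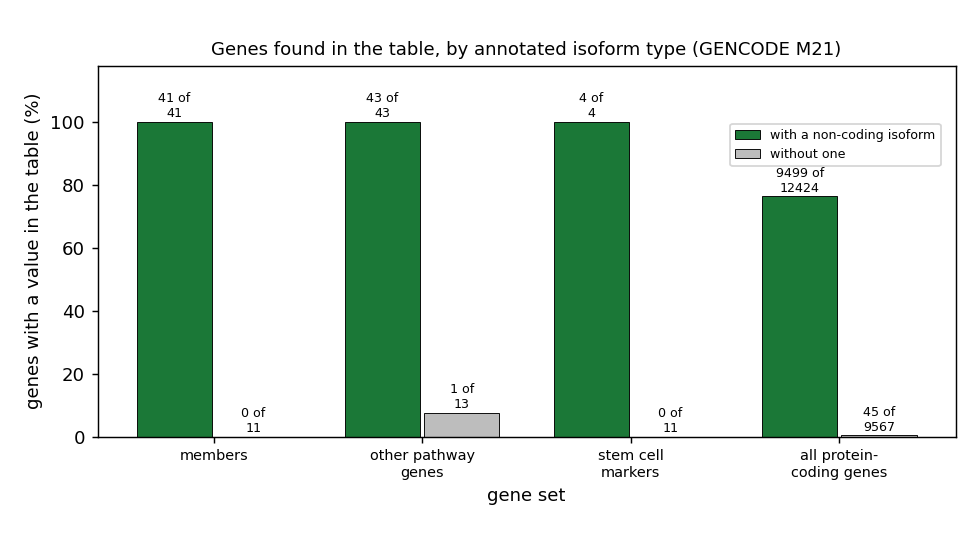
Share of genes with a value in the table (vertical axis, %), for genes with (green) and without (grey) an isoform annotated as a retained intron or processed transcript, in 4 gene sets. The members split into 41 of 41 and 0 of 11, and all protein-coding genes into 9499 of 12424 and 45 of 9567.

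The sources used here do not say whether reads were counted over all exons of a gene or over its non-coding isoforms alone. A ratio below may therefore not describe the coding mRNA. The spread between replicates was set beside the length of the isoforms. By the exon length of those isoforms, 9211 protein-coding genes were divided into 5 groups of like size. Their median replicate differences were 0.29, 0.24, 0.22, 0.21 and 0.18 in order of length, on the log2 scale and averaged over siDhx30 and siTfam. Ranked by the exon length of coding isoforms, the medians also declined over the first 4 groups, from 0.24 to 0.20, and the group with the longest stood at 0.26. Across these genes the replicate difference had a Spearman correlation of -0.18 with the non-coding and 0.020 with the coding exon length, and across the 41 members -0.35 and -0.093. These correlations are across genes measured in the same libraries, so they are descriptions only. Read counts per gene are not known, so isoform length could not be told apart from expression. Which isoforms were counted was not tested.

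**Figure D2:**
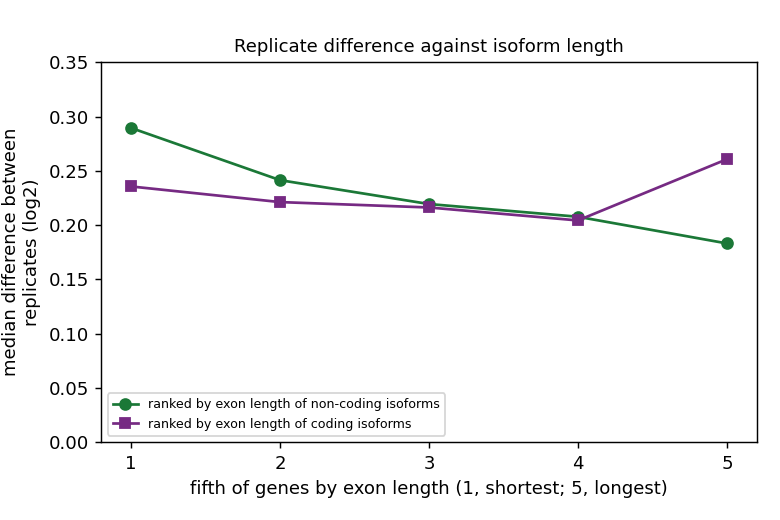
Median absolute log2 difference between replicates (vertical axis) in 5 like-sized groups of 9211 protein-coding genes ranked by exon length (horizontal axis, shortest to longest), for non-coding isoforms (green circles) and coding isoforms (purple squares). The green line runs down from 0.29 to 0.18, whereas the purple line runs down from 0.24 to 0.20 over the first 4 groups and ends at 0.26.

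The targeted genes bear on the labels. Dhx30 lay at -0.40 and -0.20 in the siDhx30 libraries (mean -0.30, SE 0.20; 81.2% of NC) and at 0.01 and 0.04 in the siTfam libraries. The 95% interval of its siDhx30 mean ran from -0.85 to 0.25. Tfam lay at -0.28 and -0.02 in the siTfam libraries (mean -0.15, SE 0.22; 90.2% of NC) and at 0.12 and -0.01 in the siDhx30 libraries. The interval of its siTfam mean ran from -0.75 to 0.45. Both genes have isoforms of the non-coding classes, 9 of 26 for Dhx30 and 1 of 5 for Tfam. Neither passed (limma adjusted p = 0.998 and 0.987), so a knockdown was not established in these ratios.

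No gene of the machinery was called by the test in the siDhx30 or the siTfam libraries. With limma and Benjamini-Hochberg adjustment over all genes, 0 of 41 were called at 0.05 with siDhx30 or with siTfam against NC, and 0 between the siRNAs. The share of all 12088 genes called was 0% in each comparison. At an unadjusted p under 0.05 there was 1 of 41, a higher gene, in siDhx30 against NC (5.04% of all genes, 2.56% higher and 2.47% lower). There was likewise 1 higher gene in siTfam against NC (6.11% of all genes, 3.04% higher and 3.08% lower). Between siDhx30 and siTfam there were 0 (2.79%, 1.29% higher and 1.5% lower). The median ratio of the 41 genes was 0.0066 in siDhx30 and -0.017 in siTfam, and the median of all genes -0.012 and -0.020. The adjusted p of the members ran from 0.987 to 0.999 in siDhx30 and from 0.812 to 0.998 in siTfam.

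The 95% interval of the ratio lay within 1 log2 unit on either side of 0, a 2-fold change, for 30 of the 41 genes in siDhx30 against NC (54.1% of all genes) and for 30 in siTfam against NC (53.1%). For the difference between siDhx30 and siTfam it did so for 35 of 41, against 68.4% of all genes. For those genes a change of more than 2-fold lay outside the interval. The intervals hold gene by gene, without adjustment for the number of genes. Those against NC take the single NC library to have the spread of the siRNA libraries. Smaller changes could have gone undetected.

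By sign alone, 14 of the 41 genes lay above NC in both siDhx30 libraries (32.1% of all genes did) and 15 lay below it in both (34.9%). In siTfam 12 lay above in both libraries (32% of all genes) and 14 below (34.4%). All 4 libraries lay above NC for 9 genes (20.1% of all genes) and below it for 10 (22.4%). These shares were near those of all genes, and the NC library is common to all 4 ratios.

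**Figure D3:**
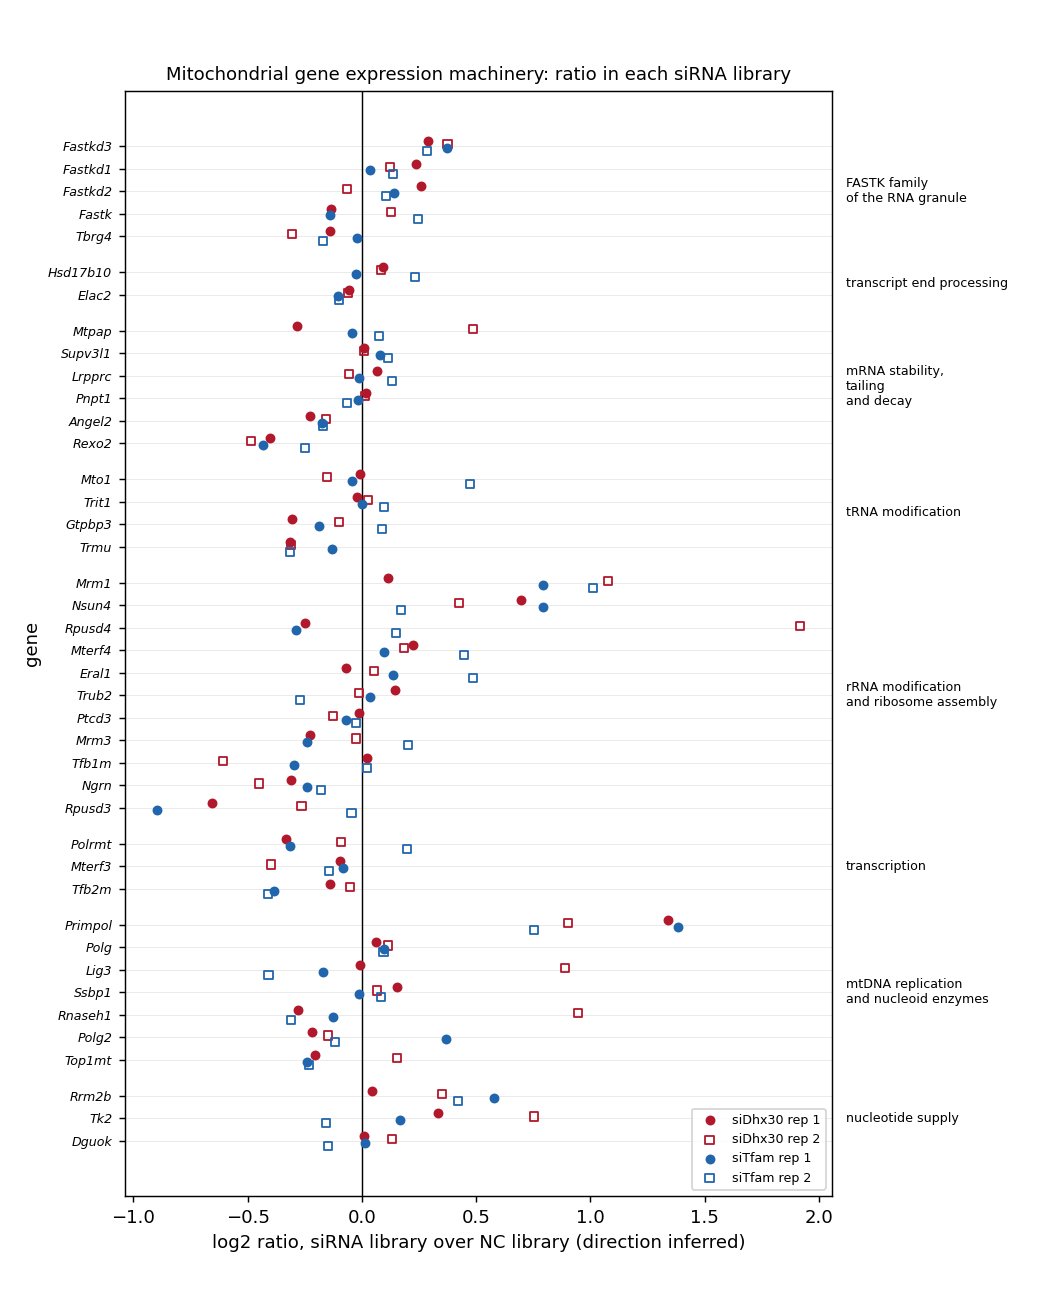
Log2 ratio to NC (horizontal axis) of the 41 genes in each siDhx30 (red) and siTfam (blue) library, with replicate 1 filled and replicate 2 open, grouped by role. Most points lie within 0.5 of 0, Primpol is high in all 4 libraries, and Rpusd4 is high in siDhx30 replicate 2 alone.

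Only 3 genes lay at least 0.2 from NC on one side in all 4 libraries: Primpol and Fastkd3 above (7.34% of all genes met the same rule) and Rexo2 below (8.34%). Primpol (ENSMUSG00000038225.15; GRCm38 chromosome 8, 46575594 to 46617212, minus strand) encodes a primase-polymerase that restarts stalled replication forks in the nucleus and in mitochondria. It lay at 1.34 and 0.90 with siDhx30 and 1.38 and 0.75 with siTfam, between 169% and 261% of NC, so all 4 libraries were high. The siTfam replicates of Primpol differed by 0.63, and 1 of its 8 annotated isoforms is of the non-coding classes. Its mean was 1.12 in siDhx30 (SE 0.38) and 1.07 in siTfam (SE 0.38). The limma p was 0.0424 and 0.0489 before adjustment, and 0.987 and 0.812 after it. Primpol was the 1 gene with an unadjusted p under 0.05 in each comparison with NC, both of which used the same NC library. Between siDhx30 and siTfam it differed by 0.05 (95% interval -0.81 to 0.92). Exons of Primpol overlap those of Cenpu and Gm45607 on the other strand. Strand use in counting is not stated, so reads of overlapping genes could not be told apart. The same holds for 17 of the 41 genes, each of which shares exon sequence with a gene on the opposite strand. Besides Primpol these are Elac2, Supv3l1, Mtpap, Mto1, Rpusd3, Tfb1m, Mterf4, Mterf3, Polg, Top1mt, Lig3 and Rrm2b, together with Fastk, Trub2, Mrm3 and Polg2, which are given below by their range. Tbrg4, Mtpap, Fastk and Ptcd3 share exon sequence with a gene on their own strand.

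Rexo2 (ENSMUSG00000032026.7; chromosome 9, 48468512 to 48480623, minus strand) encodes the exonuclease that clears very short RNAs left by decay. It lay at -0.40 and -0.48 with siDhx30 and -0.43 and -0.25 with siTfam, or 71.5% to 84.1% of NC. All 4 libraries were low, and the siDhx30 and siTfam libraries overlapped. The mean was -0.44 in siDhx30 (SE 0.20) and -0.34 in siTfam (SE 0.20), with unadjusted limma p of 0.0866 and 0.157 and adjusted p of 0.998 and 0.929.

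The FASTK family had 5 of 6 listed genes measured. These proteins bind mitochondrial RNA in the granules and, in human cells, set the levels of individual transcripts. Fastkd3 (ENSMUSG00000021532.11; chromosome 13, 68582234 to 68592338, plus strand) lay at 0.29 and 0.38 with siDhx30 and 0.37 and 0.29 with siTfam, with means of 0.33 in each (SE 0.18). The 4 libraries of Fastkd3 were within 0.1 of each other. Fastkd2, which binds the large rRNA and is needed for ribosome assembly in human cells, lay at 0.26 and -0.07 with siDhx30 and 0.14 and 0.11 with siTfam, so its siDhx30 libraries fell on either side of NC. Tbrg4, also known as Fastkd4, was the lowest of the family, at -0.14 and -0.30 with siDhx30 and -0.02 and -0.17 with siTfam.

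Both measured genes for cutting transcript ends lay near NC. Elac2, the endonuclease that trims the trailing end of tRNAs, lay at -0.05 and -0.06 with siDhx30 and -0.10 and -0.10 with siTfam. Hsd17b10, a subunit of mitochondrial RNase P as well as a dehydrogenase, lay at 0.09 and 0.08 with siDhx30 and -0.02 and 0.23 with siTfam. Neither gene reached 0.25 from NC in any library. The other subunit listed here, Trmt10c, was not found. Lrpprc, which with Slirp keeps mitochondrial mRNAs stable, lay at 0.07 and -0.06 with siDhx30 and -0.01 and 0.13 with siTfam. The degradosome genes Supv3l1, a helicase, and Pnpt1, an exoribonuclease, lay between -0.06 and 0.12 in all 4 libraries. Pnpt1 lay above NC in both siDhx30 libraries and below it in both siTfam libraries, by at most 0.06. Mtpap, the mitochondrial poly(A) polymerase, had the highest mean of the stability and decay genes, but lay at -0.28 and 0.49 with siDhx30, on either side of NC, and -0.04 and 0.07 with siTfam.

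Of the 5 genes for tRNA modification 4 were measured, and none passed the test. In siDhx30, 3 lay below NC in both libraries (34.9% of all genes) and 1 was mixed, and in siTfam 1 lay below, 1 above and 2 were mixed. Trmu, which adds sulfur to the wobble uridine, lay at -0.31 and -0.31 with siDhx30 and -0.13 and -0.32 with siTfam, below NC in all 4 libraries. Its mean was -0.31 (SE 0.19) in siDhx30 and -0.22 (SE 0.19) in siTfam, with limma adjusted p of 0.998 and 0.978. Mto1, which acts with Gtpbp3 on the same base, lay at -0.0085 and -0.15 with siDhx30 and -0.04 and 0.47 with siTfam, where 1 library stood apart.

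Of the 12 genes for rRNA modification and ribosome assembly 11 were measured, and their means over the 4 libraries ran from -0.47 to 0.75. Mrm1, an rRNA ribose methyltransferase, lay at 0.11 and 1.08 with siDhx30 and 0.80 and 1.01 with siTfam. Its libraries were all above NC, but siDhx30 replicate 1 was far below the other 3. Rpusd3, a pseudouridine synthase, was the lowest by its mean, at -0.66 and -0.26 with siDhx30 and -0.90 and -0.05 with siTfam. Nsun4, an rRNA cytosine methyltransferase, lay at 0.70 and 0.43 with siDhx30 and 0.79 and 0.17 with siTfam. In each of these genes the replicates of 1 group differed by more than 0.5. The same was true of 6 of the 41 genes in siDhx30 (22.2% of all genes) and of 5 in siTfam (23.6%). The widest was Rpusd4, another pseudouridine synthase, at -0.25 and 1.92 with siDhx30 and -0.29 and 0.15 with siTfam. It was chosen here after its values were seen.

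Ngrn, an assembly factor of the large ribosomal subunit, lay at -0.31 and -0.45 with siDhx30 and -0.24 and -0.18 with siTfam. Motif letters of known factors were found in promoters of genes on either side of NC. Below it in all 4 libraries were Ngrn (ETS), Tbrg4 (YY1), Rexo2 (NRF1), Trmu (ETS) and Ptcd3 (YY1). Above it in all 4 were Polg (ETS) and Fastkd3 (NRF1). Elac2, Angel2, Rpusd3 and Tfb2m, also below in all 4, held none of the motifs searched. Fastkd1, Supv3l1, Nsun4, Mrm1, Mterf4 and Primpol, above in all 4, held none either. Mterf3 (below in all 4) and Rrm2b (above in all 4) had no window. A link between motif and direction was not tested. As examples of where the letters stand, a stretch ahead of the RefSeq start of Ngrn and of Tbrg4 (GRCm38.p6), outside every GENCODE exon, is shown with the motif letters in capitals. Ngrn holds the ETS letters on the reverse strand (chr7:80261146-80261203, plus strand), and Tbrg4 the YY1 letters (chr11:6626119-6626177, minus strand).
Ngrn: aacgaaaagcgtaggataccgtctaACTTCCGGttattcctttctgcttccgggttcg
Tbrg4: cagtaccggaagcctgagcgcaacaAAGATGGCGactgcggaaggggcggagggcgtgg
These motifs belong to factors known to act on genes for mitochondrial proteins. Exact letters were searched on both strands of RefSeq windows from 250 bases before to 50 bases after each start, which 47 of the 52 genes had. The YY1 letters (AAGATGGCG) occurred in 7 of 47 (14.9%; 1.64% of all 27025 genes with a window), the ETS letters (CCGGAAGT) in 9 (19.1%; 4.31%) and the NRF1 consensus in 5 (10.6%; 5.19%). Among genes measured in the table, the YY1 letters occurred in 4 of 36 members (11.1%) and in 3.52% of all genes, the ETS letters in 8.33% and 9.2%, and the NRF1 consensus in 11.1% and 11.3%. A match describes the window and is no evidence of binding.

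None of the 3 measured genes of transcription passed the test. All 3 lay below NC in both siDhx30 libraries, where 34.9% of all genes did, and 2 in both siTfam libraries, where 34.4% did, and a count over 3 genes shows nothing particular to them. Polrmt, the mitochondrial RNA polymerase, lay at -0.33 and -0.09 with siDhx30 and -0.31 and 0.20 with siTfam. Tfb2m, which opens the promoter for Polrmt, lay at -0.14 and -0.05 with siDhx30 and -0.38 and -0.41 with siTfam. Both siTfam libraries were below both siDhx30 libraries, and Tfb2m had the widest such gap of the 41 genes, 0.24. The difference of 0.30 (95% interval -0.11 to 0.71) had an adjusted limma p of 0.999. Mterf3, which in mice restrains mitochondrial transcription, lay at -0.09 and -0.40 with siDhx30 and -0.08 and -0.14 with siTfam.

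In the replication group, the catalytic polymerase subunit Polg varied little, at 0.06 and 0.12 with siDhx30 and 0.10 and 0.09 with siTfam. Ssbp1, the single-strand binding protein, lay at 0.15 and 0.07 with siDhx30 and -0.01 and 0.08 with siTfam. Top1mt, the mitochondrial topoisomerase, had the lowest mean of the group, at -0.21 and 0.16 with siDhx30 and -0.24 and -0.23 with siTfam. Lig3, the ligase that seals mitochondrial DNA, lay at -0.0070 and 0.89 with siDhx30 and -0.17 and -0.41 with siTfam, so its high value came from siDhx30 replicate 2. Rnaseh1, which removes RNA primers, was likewise high in siDhx30 replicate 2, at -0.28 and 0.95 with siDhx30 and -0.13 and -0.31 with siTfam. Rnaseh1 was chosen after its values were seen.

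Nucleotide supply had all 3 listed genes measured. Tk2, the mitochondrial kinase of pyrimidine deoxynucleosides, lay at 0.33 and 0.75 with siDhx30 and 0.17 and -0.16 with siTfam, and the groups did not overlap. Rrm2b, the ribonucleotide reductase subunit under p53 control, lay at 0.04 and 0.35 with siDhx30 and 0.58 and 0.42 with siTfam, again without overlap and in the other direction. Dguok, the purine counterpart of Tk2, lay at 0.010 and 0.13 with siDhx30 and 0.015 and -0.15 with siTfam. Differences between siDhx30 and siTfam were 0.54 for Tk2 (95% interval -0.12 to 1.20), -0.30 for Rrm2b (-0.82 to 0.22) and 0.14 for Dguok (-0.31 to 0.58).

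The other 11 measured genes were Fastk, Fastkd1, Angel2, Gtpbp3, Trit1, Trub2, Mrm3, Ptcd3, Tfb1m, Mterf4 and Polg2. Their single-library ratios ran from -0.61 to 0.45. Both ends belong to ribosome assembly, with Tfb1m, the dimethylase of the small rRNA, at 0.02 and -0.61 with siDhx30 and -0.30 and 0.02 with siTfam, and Mterf4, the partner of Nsun4, at 0.22 and 0.19 with siDhx30 and 0.10 and 0.45 with siTfam. Mterf4 and Fastkd1 lay above NC in all 4 libraries. Angel2, at -0.23 and -0.16 with siDhx30 and -0.17 and -0.17 with siTfam, and Ptcd3, a protein of the small ribosomal subunit, at -0.01 and -0.12 with siDhx30 and -0.07 and -0.03 with siTfam, lay below NC in all 4.

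Between the siRNAs, the libraries did not overlap for 11 of the 41 genes. In 6 siDhx30 was higher (14.7% of all genes) and in 5 lower (14.3%), shares near the background, and the median difference was -0.023. After Tfb2m, the widest gaps were those of Tk2 (0.17) and Lig3 (0.16) with siDhx30 higher. With siDhx30 lower they were those of Eral1 (-0.080), a chaperone of the small rRNA, Rrm2b (-0.072) and Ngrn (-0.069). Eral1 lay at -0.07 and 0.05 with siDhx30 and 0.13 and 0.49 with siTfam, and differed by -0.32 (95% interval -0.86 to 0.22). Each of the 41 intervals included 0.

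**Figure D4:**
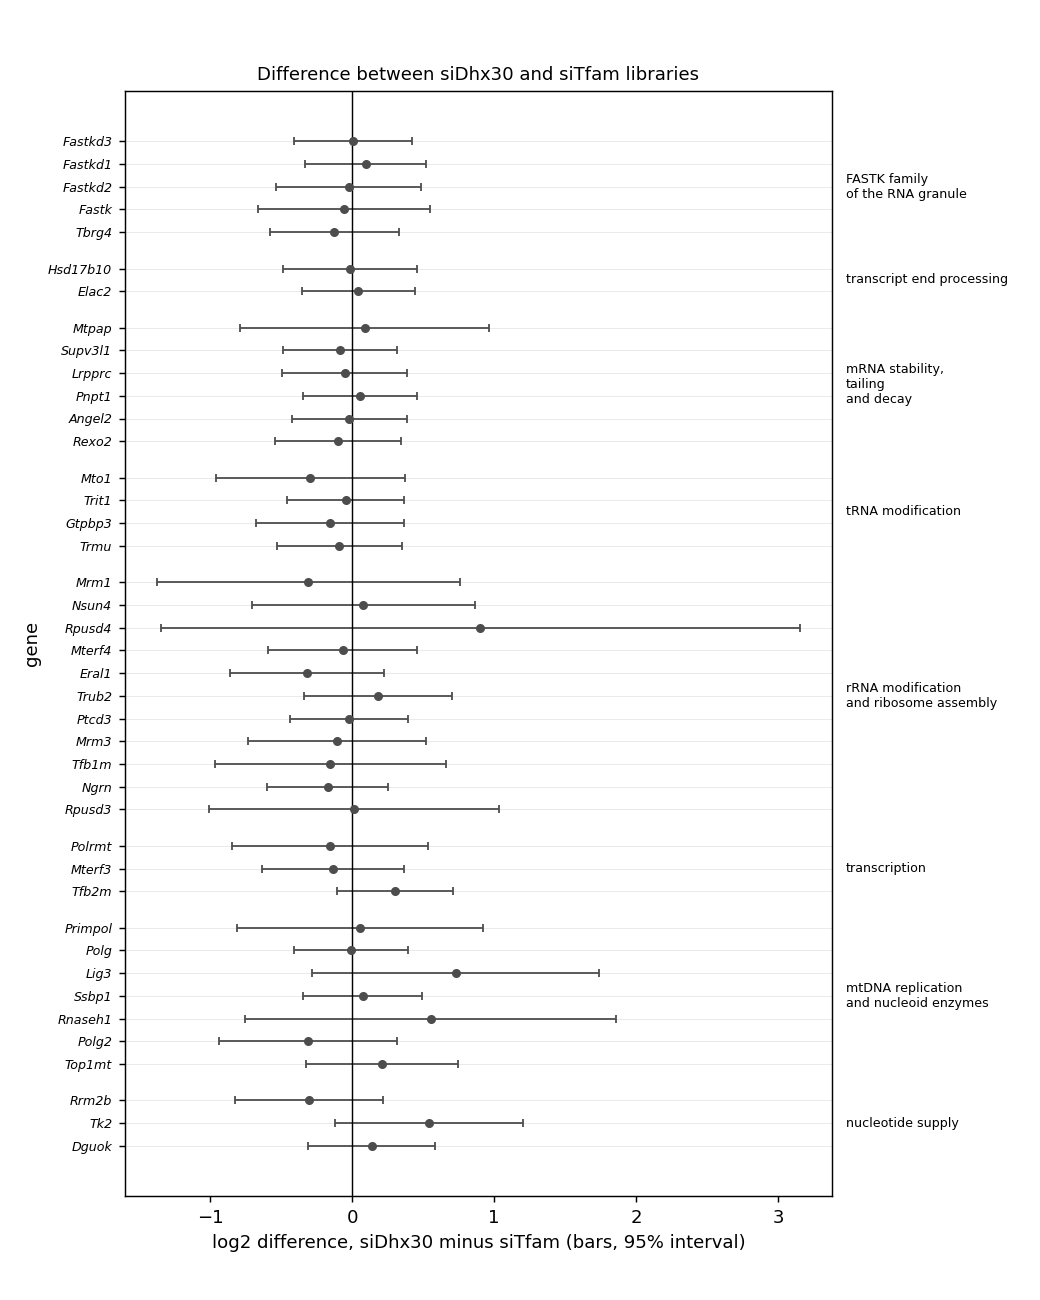
Log2 difference, siDhx30 minus siTfam (horizontal axis), for the 41 genes by role, where points are means over 2 libraries each and bars the 95% interval from limma. Every bar crosses 0, and the widest belongs to Rpusd4.

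A further 57 genes of mitochondrial translation, RNA modification, DNA repair and nucleotide supply were listed as the wider pathway. Of these, 45 were measured, and 0 were called at an adjusted p of 0.05 in any of the 3 comparisons. At an unadjusted limma p under 0.05 they included 2 lower genes in siDhx30 against NC (2.47% of all genes), 1 lower gene in siTfam against NC (3.08%), 0 higher genes in either, and 0 between siDhx30 and siTfam. The lower genes were Mtrf1 and Nme4 in siDhx30 and Mtrf1 in siTfam. Nme4 lay at -0.56 and -0.58 with siDhx30 and -0.48 and -0.27 with siTfam. Medians of the 45 genes were 0.0047 in siDhx30, -0.026 in siTfam and -0.041 for the difference. The lowest by mean over the 4 libraries were the release factor genes Mtrf1 and Mtrf1l. Mtrf1 lay at -0.93 and -0.83 with siDhx30 and -0.52 and -0.68 with siTfam. Mtrf1l lay at -0.43 and -0.93 with siDhx30 and -0.19 and -0.48 with siTfam. Both were below NC in every library. The highest were the rRNA methyltransferase gene Mettl15, at 0.75 and 0.53 with siDhx30 and 0.86 and -0.06 with siTfam, and the tRNA methyltransferase gene Nsun3, at 0.53 and 0.17 with siDhx30 and 0.46 and 0.72 with siTfam. Of the 4 genes named by their means, Mettl15 alone had a library on the other side of NC.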

How the data were processed

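The authors deposited a single table that holds a log2 ratio per gene in 4 columns, which the headers name by siRNA target (spelled DHAX30 and TFAM) and replicate. Build GRCm38 and the tools bcl2fastq, HISAT2, featureCounts and DESeq2 (listed with version 3.14) are in the submitters' processing notes. The settings, the strand and the transcripts counted are not stated there. Signs were turned to siRNA over NC. Ratios of 12088 complete genes were fitted with limma 3.58.1 in R 4.3.3, with NC as a column of zeros, 1 coefficient per group, robust variance moderation and no trend. This takes NC to have the same spread as the siRNA libraries. Gene names were matched in upper case to GENCODE M21 symbols (12660 of 12930). Exon overlaps came from bedtools 2.31.1, and tables and plots from Python 3.11.15, pandas 2.3.3, numpy 2.4.6 and matplotlib 3.10.9.

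The members, lists and rules were chosen with earlier results of these data known, and the isoform classes, length comparison and promoter motifs after the values were seen. Genes were named by a rule: the highest and lowest mean in each role, all 4 libraries at least 0.2 from NC on one side, the 6 widest gaps between siDhx30 and siTfam, and 8 central genes (Fastkd2, Fastkd5, Lrpprc, Slirp, Polrmt, Twnk, Polg and Ssbp1). Other pathway genes were named by the 2 highest and 2 lowest means, and Nme4 was added after its values were seen. Supv3l1, Pnpt1, Nsun4, Mterf3, Tfb1m, Mterf4, Angel2 and Ptcd3 fall outside the rule, as do Rpusd4 and Rnaseh1, and were added after their values were seen. Alternatives left out each siRNA library, added a replicate block, kept genes with missing values, used robust=FALSE, centred each library, kept protein-coding genes, and removed length and GC trends.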

Additional observations from a re-analysis of the deposited data

How the results depend on the processing

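No gene passed an adjusted limma p of 0.05 under any alternative run (0 in each of the 3 comparisons). The median of the 41 genes stayed within 0.1 of 0 throughout. Leaving out 1 siRNA library at a time, it ran from -0.014 to 0.016 in siDhx30 against NC, from -0.023 to 0.085 in siTfam against NC and from -0.043 to 0.0057 between siDhx30 and siTfam, so its sign depended on single libraries. The highest siTfam value came without siTfam replicate 1, and the one positive difference without siTfam replicate 2. The siDhx30 median was 0.033 once trends on transcript length and GC content were taken out. In that run 2 of the 41 genes, 1 higher and 1 lower, had an unadjusted limma p under 0.05 in siDhx30 against NC. The same counts held in siTfam against NC. Among all 9257 genes of that run there were 490 with siDhx30 and 571 with siTfam. With the replicate number as a block, the siDhx30 to siTfam comparison kept its median of -0.023 and its 0 calls, and 566 genes had an unadjusted p under 0.05, against 337 without the block. Replicate differences of siDhx30 and siTfam had a correlation of 0.25 across genes, but with 2 pairs the numbers could not be shown to pair the samples. Between 2 and 11 of the 41 genes changed sign in the siDhx30 to siTfam difference when 1 library was left out. Depth is unknown, and the test could not separate small changes from the spread.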
